A study of Mus musculus with 12 samples.

Results

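The genes described here are 38 members of the lysosomal and autophagy machinery, chosen by name, and their chromatin accessibility in tumour macrophages of the mouse. Earlier results of these data were known when they were chosen. Shares over all loci, given beside their counts below, are therefore a frame and not an independent comparison. They comprise 14 hydrolases and hydrolase activators, 7 lysosomal membrane proteins, 12 subunits of the vacuolar proton pump (V-ATPase) and 5 autophagy genes, out of 21883 protein-coding genes. The assay was ATAC-seq, which marks open DNA by where a transposase can cut and tag it, on nuclei of flow-sorted macrophages from brain tumours of mice with the genotype Ink4a/ArfKO, PDGFB, which all groups share. The 4 groups were monocyte-derived macrophages (MDM), microglia (MG), and the lipid-laden cells of each lineage (LL-MDM and LL-MG), with 3 libraries each. MDM arise from blood monocytes, whereas microglia reside in the brain. For each gene, counts were summed over the regions of open chromatin that overlap its span in the mm10 genome or its flanks of 5 kb. The 38 loci hold 286 of the 117835 deposited regions, from 1 region at Gaa and Atp6v1d to 42 at Uvrag, with a median of 6.5. The series' title concerns the recycling of myelin by macrophages, and the comparisons below ask how the loci of the degradative machinery differ by lineage and by lipid load.

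Lysosomes break down lipids, glycans and proteins that a macrophage takes up, and soluble hydrolases do this work at the acid pH that the V-ATPase maintains. The pump has a membrane sector (V0) that conducts protons and a cytosolic sector (V1) that hydrolyses ATP. Myelin is rich in galactosylceramide and sulfatide, which Galc (galactosylceramidase) and Arsa (arylsulfatase A) degrade with the help of saposins made from Psap. Autophagy genes build and close the membranes that deliver cytosolic cargo to the lysosome. Transcription factors of the MiT/TFE family are known to bind a palindromic element, the CLEAR motif, in promoters of many lysosomal genes. Open chromatin at a locus is not a measure of its RNA or protein.

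The sample labels conflict with each other. Groups were taken from the sample descriptions, whose wording heads the columns of counts, but the titles place 8 of the 12 samples in another group. Marker loci were measured as a check of the descriptions. The locus of Sall1, a microglial transcription factor, had 0.488 to 1.07 CPM (counts scaled by the TMM-adjusted library total, except at Xist, where the plain total was used) in MDM, 6.19 to 11.9 in LL-MDM, 39.8 to 74.2 in MG and 66.0 to 88.0 in LL-MG, so that both MDM groups lay below both microglia groups. The summed level of 10 microglia marker loci ran from 358 to 387 CPM in MDM, 406 to 433 in LL-MDM, 431 to 683 in MG and 665 to 722 in LL-MG. The summed level of 9 marker loci of monocyte-derived macrophages ran from 594 to 652, 579 to 606, 345 to 405 and 392 to 418 CPM in the same order. In MG 1, MG 2 and MG 3 the microglia markers were at 683, 431 and 545 CPM, and those of MDM at 345, 405 and 393. At the microglia markers MG 2 thus lay within the range of LL-MDM, and MG 1 within that of LL-MG. Dendritic cell marker loci (8 of 8 tested) were at 708 to 786 CPM in MDM and between 479 and 606 in the other groups. Siglech is in the lists of both dendritic cells and microglia. Oligodendrocyte marker loci (8 of 10 tested) were at 400 to 423 CPM in MDM and between 304 and 360 elsewhere. Endothelium marker loci (4 of 6 tested) were at 312 to 342 CPM in MDM and between 249 and 311 elsewhere. Astrocyte marker loci (6 of 8 tested) were at 256 to 267 CPM in LL-MG and between 164 and 219 elsewhere. The part of these marker loci in the results below was not tested. With the groups set by the titles instead, 0 of the 38 loci were called in MG against MDM or in LL-MG against LL-MDM by edgeR, 0 of the 38 at an unadjusted p under 0.05, and 0 of all loci.

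Libraries also differed in ways that the groups do not explain. The locus of Xist, the RNA that silences an X chromosome in females, was at 2.11 to 6.02 CPM in replicate 1 of every group and at 29.2 to 57.9 CPM in the other 8 libraries. Of the 3 mouse numbers in the titles, 2 hold libraries of both kinds. Region totals ran from 1162969 counts (LL-MDM 1) to 18938222 (MDM 2), and MDM 2 and MDM 1 were the deepest. The MG libraries differed most among themselves: chi-square per degree of freedom over region counts was 4.88 between MG 1 and MG 2, against 1.1 to 1.86 between libraries within each of the other groups. The share of counts that lies over promoter windows was 32.0% to 33.9% in MDM, 33.5% to 35.2% in LL-MDM, 35.0% to 36.8% in MG and 33.1% to 34.0% in LL-MG. MG 2 and MG 3 had the highest shares, 36.8% and 36.1%. Fewer cells of a type and less open chromatin per cell cannot be told apart in these bulk libraries.

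**Figure D1:**
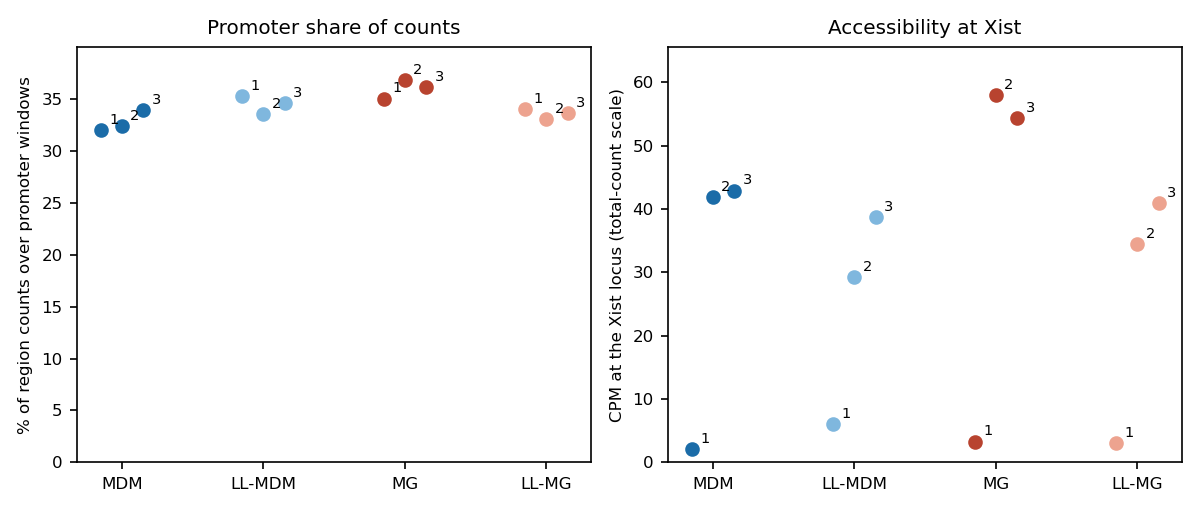
The left panel plots the percentage of region counts over promoter windows, and the right panel the CPM at the Xist locus, for each library (points, numbered by replicate) in the 4 groups. Replicate 1 of every group lies at or below 6.02 CPM at Xist, and the 3 MG libraries lie at 35.0% or more in the promoter panel.

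Promoter windows give the sequence context of these loci. RefSeq (GRCm38.p6, the assembly of mm10) provided windows from 250 bases before to 50 after the transcription start for 33 of the 38 genes. The CLEAR core (letters TCACGTGA, a palindrome, so that both strands are covered) was found in 5 of 36 windows, 13.9%, against 0.974% of all 32851 windows. The shorter E-box inside it (CACGTG, also a palindrome) was found in 11 of the 36, 30.6%, against 7.15% of all windows. The windows with the core belong to Mcoln1 (a lysosomal cation channel), Gla (alpha-galactosidase A), Cd164 (a sialomucin of endosomes and lysosomes), Atp6v1a (the catalytic subunit of V1) and Atp6v0d1 (a V0 subunit). They are shown here because they carry the lysosomal element, Lamp1 because its window holds 4 E-boxes, and Galc and Arsb because their promoter regions differed most between MG and MDM. Each sequence runs from 250 bases before the start to 10 after it. The positions are chr8:3500269-3500528 (plus strand) for Mcoln1, chrX:134600996-134601255 (minus) for Gla, chr10:41519250-41519509 (plus) for Cd164, chr16:44139250-44139509 (minus) for Atp6v1a and chr8:105566055-105566314 (minus) for Atp6v0d1. Those of the others are chr8:13158911-13159170 (plus) for Lamp1, chr12:98259450-98259709 (minus) for Galc and chr13:93771429-93771688 (plus) for Arsb. Capitals mark the core, or in Lamp1 the E-box, and the sequences of Galc and Arsb have neither.
Mcoln1: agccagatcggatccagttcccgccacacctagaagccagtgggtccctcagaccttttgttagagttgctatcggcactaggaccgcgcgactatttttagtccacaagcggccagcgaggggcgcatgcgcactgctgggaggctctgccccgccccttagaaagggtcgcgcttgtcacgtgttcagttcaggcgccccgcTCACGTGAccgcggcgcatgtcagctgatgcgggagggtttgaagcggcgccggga
Gla: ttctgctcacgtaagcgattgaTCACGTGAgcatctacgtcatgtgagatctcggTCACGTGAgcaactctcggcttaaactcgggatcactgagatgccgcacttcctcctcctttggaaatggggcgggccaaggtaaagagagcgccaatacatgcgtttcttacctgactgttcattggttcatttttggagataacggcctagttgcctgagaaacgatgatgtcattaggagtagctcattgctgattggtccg
Cd164: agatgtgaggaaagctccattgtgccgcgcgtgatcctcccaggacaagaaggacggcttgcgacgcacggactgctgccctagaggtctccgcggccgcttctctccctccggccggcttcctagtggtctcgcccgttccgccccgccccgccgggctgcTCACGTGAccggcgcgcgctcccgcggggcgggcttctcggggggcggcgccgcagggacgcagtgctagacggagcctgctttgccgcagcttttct
Atp6v1a: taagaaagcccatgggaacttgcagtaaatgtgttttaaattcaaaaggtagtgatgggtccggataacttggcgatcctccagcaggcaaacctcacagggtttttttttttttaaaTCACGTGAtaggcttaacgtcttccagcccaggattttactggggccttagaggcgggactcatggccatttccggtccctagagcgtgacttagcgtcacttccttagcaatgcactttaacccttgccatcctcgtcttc
Atp6v0d1: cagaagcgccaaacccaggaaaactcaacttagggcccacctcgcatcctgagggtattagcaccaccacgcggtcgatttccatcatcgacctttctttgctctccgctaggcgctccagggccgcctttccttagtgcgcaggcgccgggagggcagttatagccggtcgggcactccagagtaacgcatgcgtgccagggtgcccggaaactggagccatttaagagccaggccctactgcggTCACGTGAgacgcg
Lamp1: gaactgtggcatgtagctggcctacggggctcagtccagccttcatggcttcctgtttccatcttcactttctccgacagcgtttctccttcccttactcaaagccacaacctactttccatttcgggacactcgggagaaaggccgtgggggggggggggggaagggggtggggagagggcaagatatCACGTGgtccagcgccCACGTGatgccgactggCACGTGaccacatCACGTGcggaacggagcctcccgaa
Galc: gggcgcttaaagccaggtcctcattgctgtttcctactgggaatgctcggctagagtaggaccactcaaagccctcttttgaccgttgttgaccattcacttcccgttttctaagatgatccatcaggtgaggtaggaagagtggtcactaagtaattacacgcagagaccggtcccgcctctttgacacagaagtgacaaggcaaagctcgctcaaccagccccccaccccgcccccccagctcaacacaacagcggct
Arsb: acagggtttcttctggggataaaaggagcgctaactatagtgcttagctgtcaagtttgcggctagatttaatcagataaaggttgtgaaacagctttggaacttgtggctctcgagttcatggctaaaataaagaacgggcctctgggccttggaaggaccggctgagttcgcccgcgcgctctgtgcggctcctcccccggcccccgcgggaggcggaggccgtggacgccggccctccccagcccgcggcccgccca

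Regions at these loci were called as peaks by the authors about as often as elsewhere in MDM and more often in the other groups. The region names give an MDM call for 260 of the 286 regions (90.9%, against 89.3% of all regions), an MG call for 174 (60.8% against 51.8%), an LL-MDM call for 146 (51.0% against 42.8%) and an LL-MG call for 128 (44.8% against 36.2%). A call in all 4 groups was given for 112 regions, 39.2%, against 27.6% of all regions. These shares cannot be read as particular to the genes. Of the 286 regions 222 passed the count filter of the tests, against 77737 of 117835. Among the tested regions 35 of 222 lay over promoter windows, against 9470 of 77737. MDM held the 2 deepest libraries, and with 89.3% of all regions called there, little room was left for a higher share. The part of depth was not tested. Counts are not always the gene's own, since neighbouring spans overlap. For 15 of the genes no count was shared with a neighbour. For 16 more than 50% were, and among these were 7 with every count shared (Gla, Smpd1, Gaa, Mcoln1, Atp6v0b, Atp6v1d and Atp6ap1).

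Microglia and MDM without lipid load differed at 13 of the 38 loci, 11 higher and 2 lower in MG (edgeR's quasi-likelihood test, Benjamini-Hochberg adjusted p under 0.05). Of all 15540 loci tested, 20.4% were called higher and 20.6% lower. The median log2 fold change was 0.06 over the 38 loci and 0.01 over all loci. Higher calls made up 49.8% of all calls, and 62.1% with total-count scaling. The higher loci included Arsb, the sulfatase of dermatan and chondroitin sulfate, and 4 V-ATPase subunits (Atp6v0d2, Atp6v1a, Atp6v1e1 and Atp6v1h), and no V-ATPase locus was called lower. The lower loci were Uvrag, a partner of the Beclin lipid kinase complex, and Gm2a, the activator that presents GM2 ganglioside to hexosaminidase.

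Among hydrolases, Arsb (chr13:93771679-93943016) had 97.5, 98.3 and 92.5 CPM in MDM against 124, 152 and 140.0 in MG. All 3 MG libraries lay above all MDM libraries, with a log2 fold change of 0.54 ± 0.08 (SE, edgeR adjusted p 9.55e-06). Glb1 (chr9:114401078-114474379), the beta-galactosidase of GM1 ganglioside and keratan sulfate, had 50.1, 52.8 and 55.1 CPM in MDM and 53.7, 87.2 and 76.2 in MG. MG 1 lay within the MDM range and the rise of 0.50 ± 0.12 on the log2 scale (edgeR adjusted p 0.00238) rested on MG 2 and MG 3. Of the counts at Glb1, 92.1% are shared with Tmppe. One inner region of Glb1, chr9:114417719-114417928, had 89 and 39 counts in MG 2 and MG 3 and 0 to 3 counts in each of the other 10 libraries, and its promoter region differed by 0.12 ± 0.12. Smpd1, the acid sphingomyelinase, had 20.8, 24.7 and 22.3 CPM in MDM against 27.2, 36.9 and 29.4 in MG. Its groups did not overlap (log2 0.48 ± 0.14, edgeR adjusted p 0.00949), and all its counts are shared with Apbb1. Gaa, the acid alpha-glucosidase of glycogen, was also higher, by 0.36 ± 0.13, in 1 region shared with Ccdc40. Gm2a (chr11:55097985-55113029) had 154, 162 and 167 CPM in MDM against 137, 105 and 109 in MG, without overlap (log2 -0.48 ± 0.09, edgeR adjusted p 0.00023). Its promoter region differed by -0.02 ± 0.11, not called, whereas 4 of its 5 other tested regions were called lower, among them chr11:55115838-55116373 with 25.6 to 26.7 CPM in MDM and 9.61 to 11.5 in MG.

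The V-ATPase loci were called higher in 4 of 12 cases, with a median log2 fold change of 0.13. Atp6v0d2, a V0 subunit of osteoclasts and macrophages, had 31.0, 27.3 and 28.0 CPM in MDM against 49.1, 35.5 and 45.7 in MG, without overlap (log2 0.56 ± 0.14, edgeR adjusted p 0.00202). Atp6v1a (chr16:44085402-44139702) had 181, 180.4 and 191 CPM in MDM against 219, 232 and 225 in MG, again without overlap (log2 0.29 ± 0.07, edgeR adjusted p 0.00126). Atp6v1a shares 83.3% of its counts with Naa50, and its clearest difference lay inside the gene. The region chr16:44119775-44120122 had 6.57, 8.69 and 8.72 CPM in MDM against 30.0, 23.7 and 27.6 in MG, while the promoter region shown above for Atp6v1a differed by 0.25 ± 0.13 and was not called. Atp6v1e1, a stalk subunit of V1, had 60.5, 57.5 and 60.2 CPM in MDM against 68.5, 77.3 and 71.8 in MG (log2 0.30 ± 0.08, edgeR adjusted p 0.00539). Atp6v1h, the regulatory H subunit, was higher by 0.30 ± 0.11.

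Of the membrane proteins, Lamp2 (0.35 ± 0.11) and Cd164 (0.24 ± 0.08) were called higher in MG, and the other 5 were not called. Cd164 has 84.1% of its counts in common with Ppil6, and the regions that belong to Cd164 alone had a log2 fold change of -0.40. Among autophagy genes, Map1lc3b, which encodes the LC3B protein of autophagosome membranes, was higher by 0.22 ± 0.08. Uvrag (chr7:98886742-99141167) was lower: it had 413, 402 and 426 CPM in MDM against 291, 247 and 264 in MG. The groups were far apart, with a log2 fold change of -0.63 ± 0.08 (edgeR adjusted p 1.66e-06), the smallest p among the 38 loci in this comparison. Lamp1, the main glycoprotein of the lysosomal membrane, showed no called difference over its locus (-0.02 ± 0.09), nor did Galc (0.06 ± 0.10), Arsa (-0.05 ± 0.12) and Sqstm1, the autophagy receptor p62 (0.17 ± 0.09). Calls for Glb1, Gm2a, Arsb, Atp6v0d2, Atp6v1a, Atp6v1e1 and Uvrag were kept in all 12 fits that each left out 1 library, and the others were not: Smpd1 was lost without MDM 1 or MG 2, Gaa without any 1 MDM library or MG 2, and Lamp2 without MG 3. Cd164 was lost without MDM 2, MDM 3 or MG 2, Atp6v1h without any 1 MDM library, and Map1lc3b without MDM 1, MDM 2 or MG 2. With promoter regions only, the calls of Glb1, Lamp2 and Atp6v1a were lost. With regions of a single gene those of Cd164 and Map1lc3b were lost, and without the 4 libraries low at Xist those of Atp6v1h and Map1lc3b. Without both MG 2 and MG 3, 6 loci were higher and 1 lower, against 17.4% and 15.3% of all loci. Glb1, Smpd1, Gaa, Lamp2, Cd164, Atp6v1e1, Atp6v1h and the lower call of Gm2a were lost there, and Arsb, Atp6v0d2, Atp6v1a, Map1lc3b and Uvrag were kept.

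**Figure D2:**
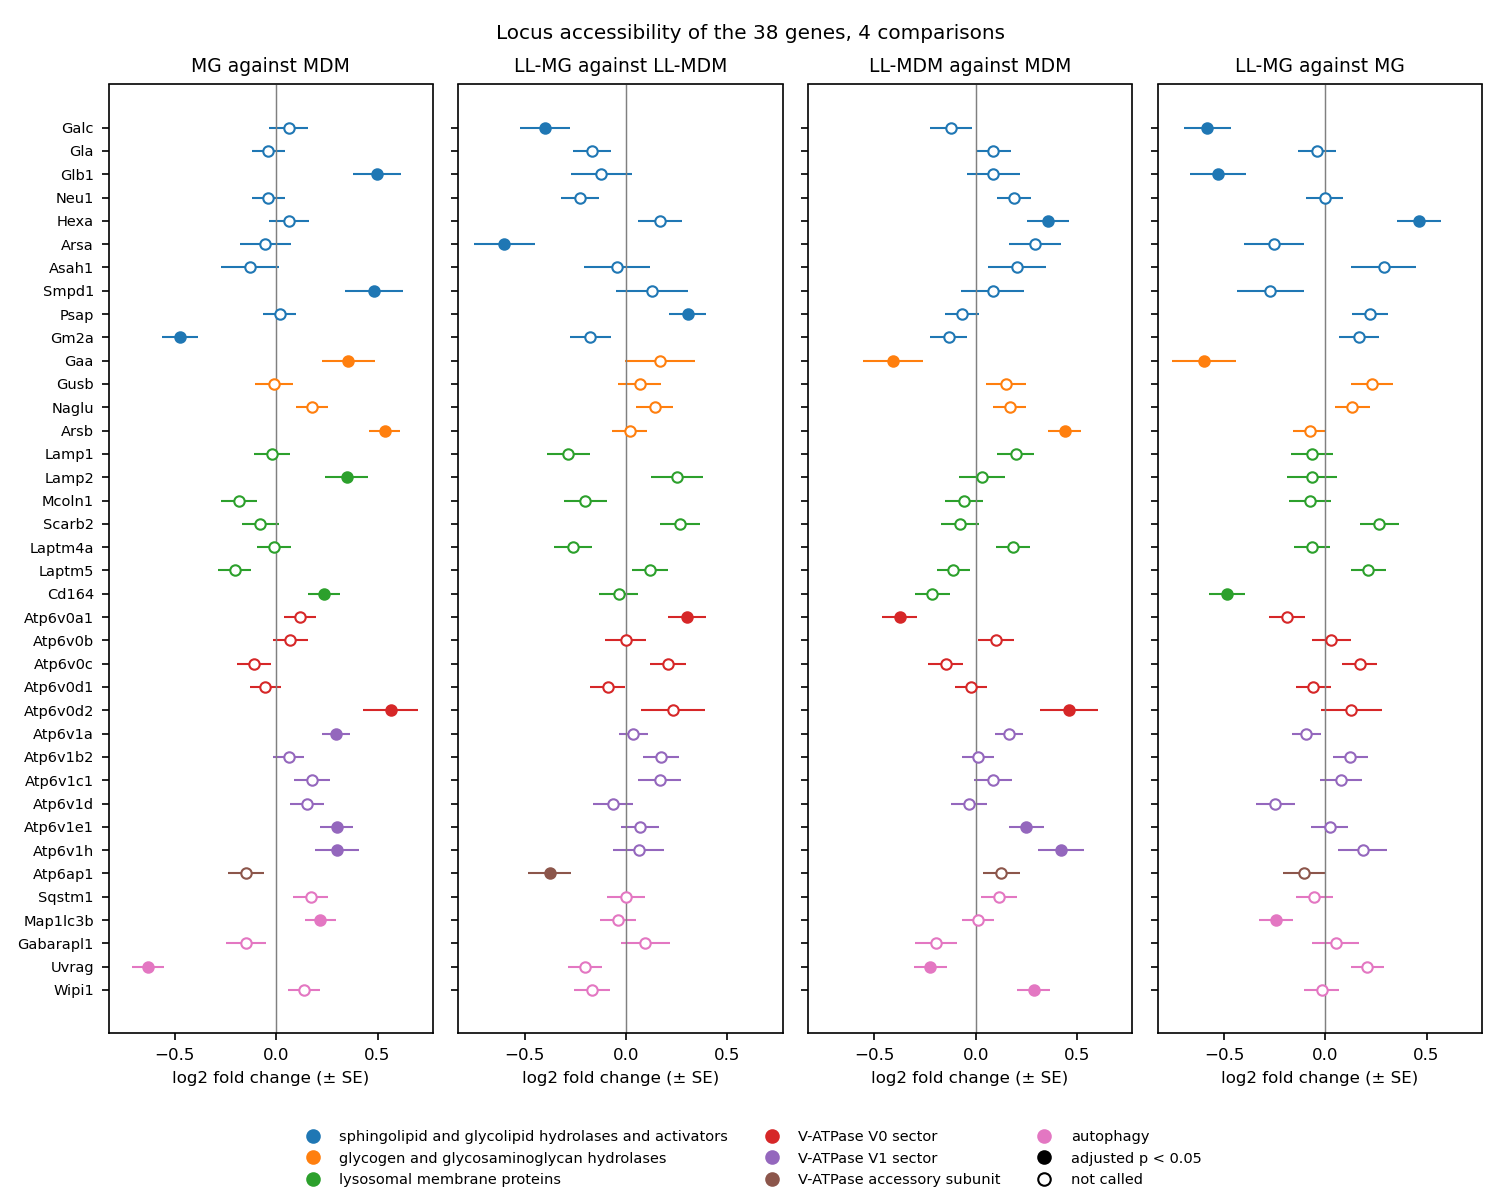
Each row is 1 of the 38 loci and each panel 1 comparison; points give the log2 fold change with its standard error, coloured by role, filled where the edgeR adjusted p was under 0.05. In MG against MDM 11 points are filled on the right and 2 on the left, and in LL-MG against MG 1 is filled on the right and 5 on the left.

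Single regions moved in both directions within loci. In MG against MDM, 67 of 222 tested regions were higher and 44 lower, where 26.8% of all tested regions were higher and 24.9% lower. There were 15 genes with regions in both directions, 15 with higher regions only, 3 with lower regions only and 5 with none. Such a split was not computed for all genes, and it depends on the number of regions at a gene. The median was 6.5 regions at the loci described here, against 4 over all genes with a region. The split can therefore not be read as particular to these genes. By position, 18 of 35 promoter regions (regions over the gene's own promoter window) were higher and 0 lower, 41 of 129 other regions inside the span were higher and 23 lower, and 8 of 58 regions outside the span were higher and 21 lower. Of all 9470 tested promoter regions in the genome, 33.4% were higher and 5.54% lower, and of all other regions 25.8% were higher and 27.6% lower. The promoter share of counts was highest in MG 2 and MG 3. The median log2 fold change was 0.28 over the 35 promoter regions and 0.21 over all promoter regions. These levels rested in part on single libraries. Without MDM 1 the higher regions were 13 of the 35 and 19.4% of all promoter regions (median 0.13), without MDM 2 they were 11 and 20.3% (median 0.13), and without MG 2 they were 13 and 22.8% (median 0.12).

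The promoter regions with the largest rises belonged to Arsb (0.92 ± 0.12), Galc (0.90 ± 0.14), Lamp1 (0.78 ± 0.15) and Naglu (0.75 ± 0.12), the last being the N-acetylglucosaminidase of heparan sulfate. The Galc promoter region had 17.8, 18.6 and 22.6 CPM in MDM against 34.1, 34.0 and 40.7 in MG. The Lamp1 promoter region had 22.6, 22.4 and 22.2 CPM in MDM against 30.0, 48.0 and 35.4 in MG. In both cases every MG library lay above every MDM library, although neither locus as a whole was called. Regions and loci were scaled separately, so their values are not on the same scale. At Galc the inner region chr12:98249633-98250020 went the other way, with 16.1 to 17.9 CPM in MDM and 6.69 to 11.2 in MG (log2 -1.03 ± 0.21). Of the promoters with a CLEAR core, those of Cd164 (0.48 ± 0.12) and Mcoln1 (0.47 ± 0.15) were called higher, and those of Atp6v1a, Gla (0.21 ± 0.12) and Atp6v0d1 (0.08 ± 0.12) were not. When promoter counts were scaled against other promoters only, 11 of 31 genes were higher and 3 lower, against 16.2% and 16.1% of 9335 genes. Arsb (0.70 ± 0.10), Galc (0.69 ± 0.12), Lamp1 (0.56 ± 0.12) and Naglu (0.52 ± 0.10) were among the higher ones, and Scarb2 (-0.28 ± 0.09), Gm2a (-0.22 ± 0.08) and Uvrag (-0.20 ± 0.08) were the lower ones. Without both MG 2 and MG 3, 5 of the 35 promoter regions were higher and 1 lower, against 14.9% and 5.95% of all promoter regions, whose median was then 0.059.

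**Figure D3:**
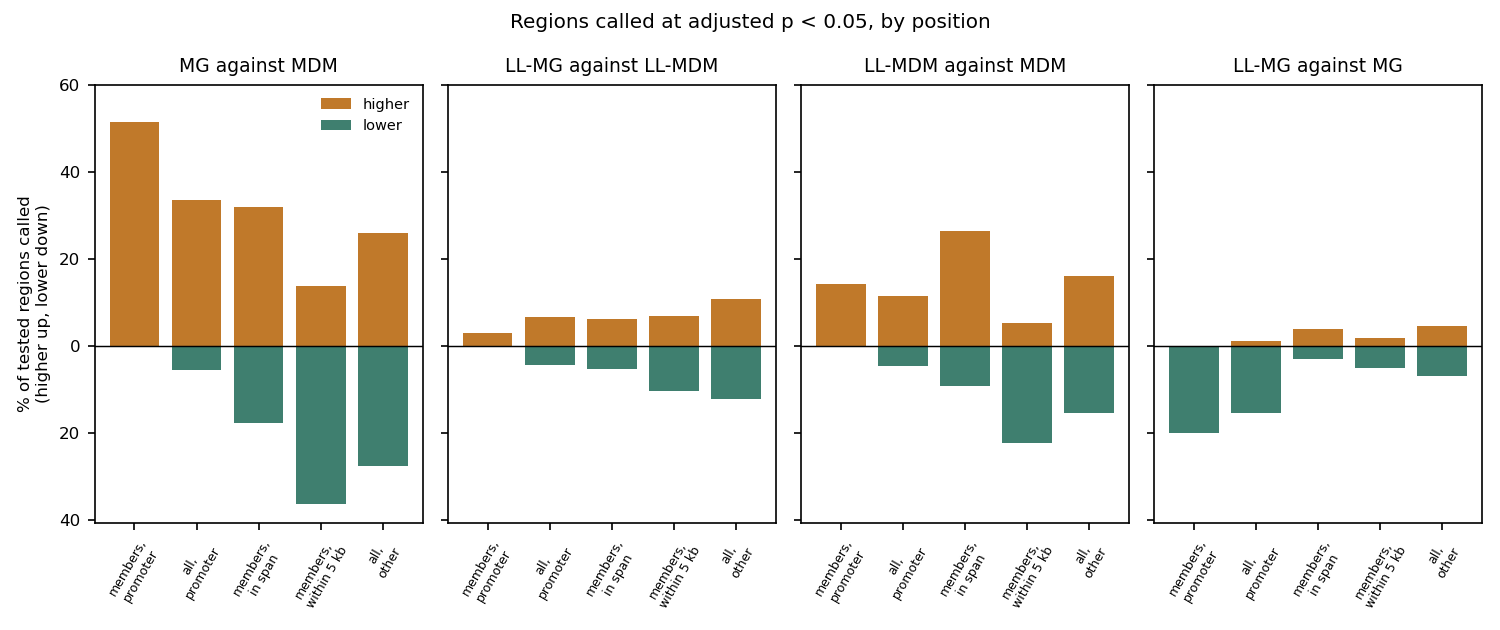
Bars give the percentage of tested regions called higher (upward) or lower (downward) for promoter regions, regions inside the span and regions within 5 kb of the 38 loci, beside all promoter regions and all other regions. In MG against MDM 51.4% of the 35 promoter regions are higher and 0 lower, and in LL-MG against MG 0 are higher and 20% lower.

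Uvrag and Galc show how regions of 1 locus diverged. At Uvrag, 3 of 30 tested regions were higher in MG and 13 lower, and the promoter region did not differ (0.00 ± 0.11). The region chr7:99143279-99143531, just upstream of the gene, had 31.5, 25.1 and 27.7 CPM in MDM against 4.08, 2.92 and 1.46 in MG (log2 -3.37 ± 0.24). It lay between 14.2 and 20.03 CPM in LL-MDM and between 1.81 and 2.90 in LL-MG. The region chr7:98970740-98971062, deep inside the gene, went the other way, with 0.584, 0.543 and 0.855 CPM in MDM against 7.78, 5.32 and 8.78 in MG (log2 3.49 ± 0.32). In LL-MDM it had 3.54, 3.06 and 3.08 CPM, between the ranges of MDM and MG, and in LL-MG 10.4, 9.87 and 12.7, above all MG libraries. Another inner region, chr7:99086908-99087383, was at 21.8 to 23.9 CPM in MDM and at or below 7.98 CPM in all 9 other libraries. In LL-MDM against MDM, 3 of the 30 regions were higher and 7 lower.

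**Figure D4:**
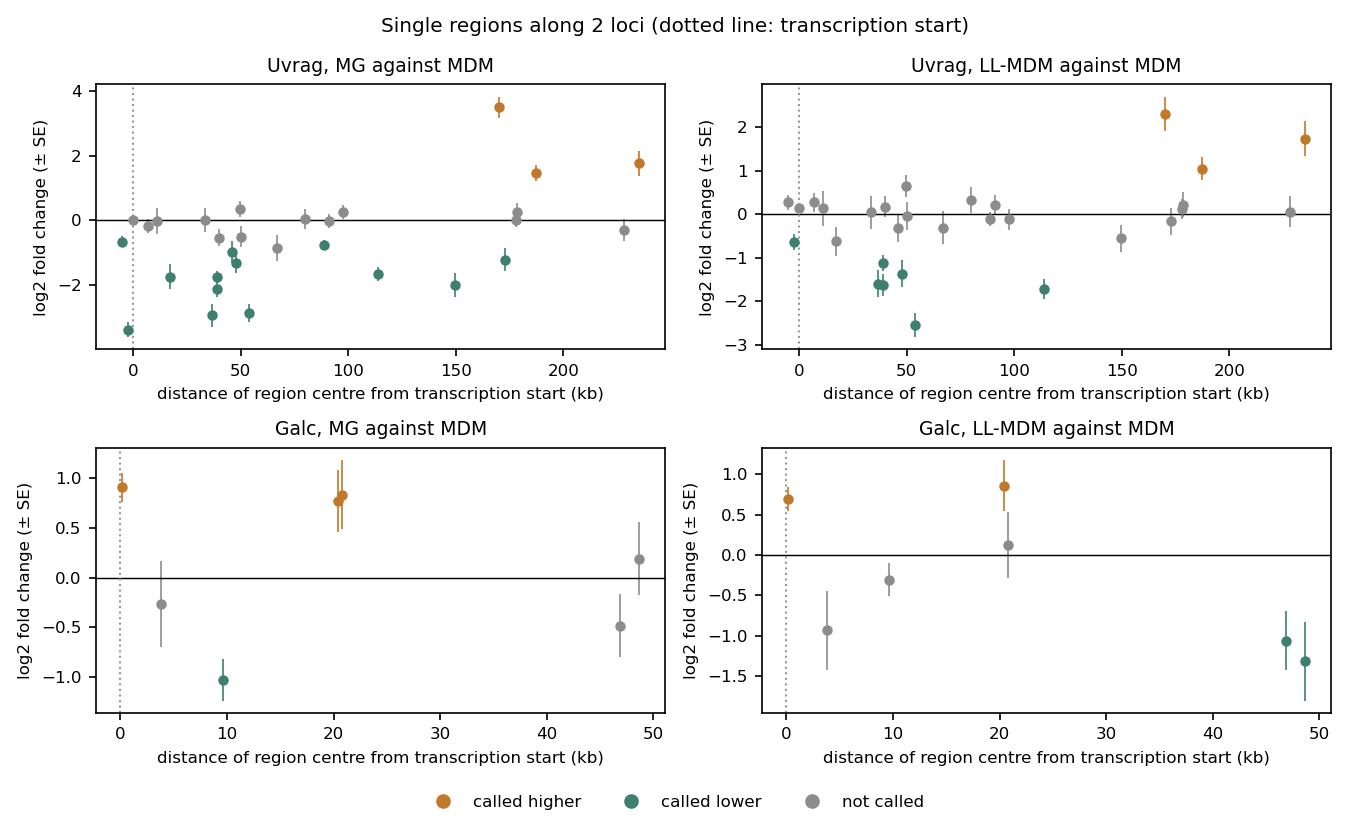
Points are single tested regions of Uvrag and Galc, placed by the distance of their centre from the transcription start (kb, downstream to the right), with the log2 fold change and its standard error for MG against MDM and LL-MDM against MDM. Regions called higher and lower lie side by side in both genes; at Uvrag the 3 higher regions of each panel lie far downstream of the start.

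Lipid-laden MDM differed from MDM at 9 of the 38 loci, 6 higher and 3 lower. The background was 11.7% of all loci higher and 12.2% lower, and the median log2 fold change was 0.09 over the 38 loci and 0.00 over all loci. The higher loci were the hydrolases Arsb and Hexa (the alpha subunit of hexosaminidase A), the pump subunits Atp6v1h, Atp6v0d2 and Atp6v1e1, and Wipi1, an autophagy protein that binds phosphatidylinositol 3-phosphate. The lower loci were Atp6v0a1, Uvrag and Gaa. MDM serve as the comparison group here and in MG against MDM, so that the values of both comparisons share 3 libraries. Of the 8 dendritic cell marker loci, 5 were lower in LL-MDM than in MDM and 0 higher, and of the 10 microglia marker loci 4 were higher and 0 lower; their part in these calls was not tested.

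Arsb had 127, 137 and 125 CPM in LL-MDM against 92.5 to 98.3 in MDM, without overlap (log2 0.44 ± 0.08, edgeR adjusted p 0.000515). Atp6v1h had 34.9, 34.5 and 32.6 CPM against 25.3, 26.0 and 24.7 in MDM (log2 0.42 ± 0.11, edgeR adjusted p 0.00959), also without overlap. Hexa (chr9:59539540-59565109) had 144, 160.1 and 162 CPM in LL-MDM against 111, 123 and 135 in MDM. The Hexa ranges were close but apart, with a log2 difference of 0.36 ± 0.10 (edgeR adjusted p 0.0150). A flanking region of Hexa, chr9:59537655-59537992, rose from 12.4, 12.7 and 20.2 CPM to 23.9, 29.9 and 34.6, and the promoter region of Hexa rose by 0.41 ± 0.12. Tmem202 shares 51.1% of the counts at Hexa, this flanking region among them. Wipi1 had 161, 147 and 165 CPM against 121, 123 and 142 in MDM (log2 0.29 ± 0.08, edgeR adjusted p 0.0150), without overlap. Atp6v0d2 was higher by 0.46 ± 0.14, with 38.4, 34.7 and 47.6 CPM in LL-MDM, and Atp6v1e1 by 0.25 ± 0.09, with 67.3, 71.5 and 71.0. Atp6v1a missed the test over its locus (0.16 ± 0.07), but its inner region chr16:44119775-44120122 had 24.8, 23.6 and 30.1 CPM in LL-MDM against at most 8.72 in MDM (log2 1.71 ± 0.18, edgeR adjusted p 1.3e-08).

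Atp6v0a1, the a1 subunit of the proton channel, had 75.0, 87.4 and 77.2 CPM in LL-MDM against 110.0, 99.0 and 108 in MDM. No LL-MDM library reached the MDM range, and the log2 fold change was -0.37 ± 0.09 (edgeR adjusted p 0.00315). Uvrag had 369, 358 and 338 CPM in LL-MDM, below all MDM libraries (log2 -0.22 ± 0.08, edgeR adjusted p 0.0472). Gaa had 26.4, 23.1 and 23.1 CPM against 31.4, 31.4 and 31.5 in MDM (log2 -0.41 ± 0.15, edgeR adjusted p 0.0487). The calls for Arsb and Atp6v0a1 were kept in all 12 fits that left out a library, but that of Atp6v0a1 was lost with the span without flanks and with promoter regions only. Hexa was lost without MDM 1, LL-MDM 2 or LL-MDM 3, Atp6v0d2 without MDM 2, MDM 3 or LL-MDM 3, Wipi1 without MDM 1, MDM 2 or LL-MDM 3, and Atp6v1h without LL-MDM 2. The calls of Hexa and Uvrag were also lost with the span without flanks and with regions of a single gene. With promoter regions only those of Atp6v1e1 and Uvrag were lost as well. Without the 4 libraries low at Xist, Uvrag and Wipi1 were lost. Atp6v1e1 was lost without any 1 library of either group, as were Uvrag and Gaa, which were also lost without some microglia libraries and kept in 3 and 4 of the 12 fits. Under RLE or total-count scaling 1 locus was called lower instead of 3.

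Over single regions, 42 of 222 were higher in LL-MDM and 25 lower, against 15.4% and 14.1% of all tested regions. Inside the spans 34 of 129 were higher and 12 lower, and outside the spans 3 of 58 were higher and 13 lower. Promoter regions were higher in 5 of 35 cases and lower in 0, against 11.4% and 4.7% of all promoter regions. The promoters called were those of Galc (0.69 ± 0.15), Naglu (0.63 ± 0.13), Arsb (0.44 ± 0.13), Hexa and Wipi1 (0.33 ± 0.12). Galc had 39.9, 28.0 and 31.2 CPM in its promoter region in LL-MDM, above all MDM libraries.

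Lipid-laden microglia differed from microglia at 6 loci, 1 higher and 5 lower. Of all loci 9.81% were higher and 8.64% lower, and the medians were -0.03 over the 38 loci and 0.02 over all loci. Higher calls were 53.2% of all calls, and 37.3% with total-count scaling. Hexa was higher, and Galc, Cd164, Gaa, Glb1 and Map1lc3b were lower. Of the 12 V-ATPase loci 0 were called. Astrocyte marker loci were higher in 2 of 6 cases and lower in 0, and their part was not tested. Galc (chr12:98202287-98259459) had 53.6, 49.2 and 48.9 CPM in LL-MG against 60.04, 84.1 and 79.3 in MG. The groups did not overlap, though MG 1 lay nearer to LL-MG than to the other MG libraries (log2 -0.58 ± 0.12, edgeR adjusted p 0.00471). The Galc promoter region, with 34.4, 32.4 and 30.8 CPM in LL-MG, was not called (-0.16 ± 0.16). The inner region chr12:98255435-98255874 had 1.81, 0.940 and 1.45 CPM in LL-MG against 4.08, 33.4 and 18.0 in MG, and 24.5, 22.3 and 25.8 in MDM against 14.2, 11.4 and 13.7 in LL-MDM. All lipid-laden libraries lay below the other libraries of their lineage, with a log2 fold change of -3.81 ± 0.84 in microglia (edgeR adjusted p 0.0226) and of -0.93 ± 0.49 in MDM, which did not pass the test (edgeR adjusted p 0.199).

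Hexa had 174, 187 and 169 CPM in LL-MG against 152, 107 and 130 in MG, without overlap (log2 0.46 ± 0.11, edgeR adjusted p 0.00911). An inner region, chr9:59544699-59545128, carried part of it, with 54.3, 63.9 and 63.1 CPM against 50.04, 29.7 and 39.8. Cd164 had 89.9, 86.1 and 91.0 CPM in LL-MG against 109, 135 and 127 in MG (log2 -0.49 ± 0.09, edgeR adjusted p 0.00377). Its promoter region, which contains the CLEAR core, had 78.7, 73.8 and 77.7 CPM against 97.5, 147 and 124, and neither measure of Cd164 overlapped between the groups. Gaa had 31.9, 26.5 and 22.0 CPM in LL-MG against 32.5, 47.5 and 38.4 (log2 -0.60 ± 0.16, edgeR adjusted p 0.0150), with MG 1 close to LL-MG 1. Glb1 had 58.0, 45.4 and 50.4 CPM in LL-MG, overlapping MG 1 (log2 -0.53 ± 0.14, edgeR adjusted p 0.0168). Map1lc3b had 103, 105 and 105 CPM in LL-MG against 126, 133 and 111 in MG (log2 -0.24 ± 0.08, edgeR adjusted p 0.0482), without overlap.

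P-values for LL-MG against MG rest on a spread that all 4 groups share in the main fit, not on the spread of MG and LL-MG alone. A fit of only MG and LL-MG keeps all their libraries but takes its spread from these groups. The comparison also depended on MG 2 and MG 3, the MG libraries lower in summed microglia markers, whose part was not tested. Without both of them, or with only MG and LL-MG in the fit, 0 of the 38 loci were called in either direction by edgeR. At an unadjusted p under 0.05 the first fit gave 0 higher and 3 lower, the second 2 higher and 7 lower, and in the second 0 of all loci were called. Without MG 1, 9 loci were higher and 7 lower, and the calls among all loci grew as well, from 1524 higher and 1342 lower to 2870 and 3118. Calls for Galc, Hexa and Cd164 were kept in all 12 fits that left out a library. With regions of a single gene the call of Cd164 was lost, and with promoter regions only those of Galc, Hexa and Glb1. Without the 4 libraries low at Xist, Map1lc3b was lost. Glb1 and Gaa were lost without MG 2, LL-MG 2 or LL-MG 3, and Map1lc3b was kept in 3 of 12, without LL-MDM 3, MG 1 or MG 3. Over single regions 6 of 222 were higher and 14 lower, against 4.21% and 8.01% of all tested regions. Of 35 promoter regions 0 were higher and 7 lower, against 1.14% and 15.3% of all promoter regions. The 7 were those of Atp6v0a1 (-1.24 ± 0.33), Mcoln1 (-0.84 ± 0.18), Gaa (-0.76 ± 0.17), Cd164 (-0.69 ± 0.13), Lamp1 (-0.59 ± 0.17), Map1lc3b (-0.58 ± 0.15) and Atp6v1d (-0.40 ± 0.12). The Mcoln1 promoter region had 21.3, 17.4 and 19.2 CPM in LL-MG against 27.1, 38.4 and 36.6 in MG, without overlap. Scaled against other promoters only, 1 of 31 genes was higher (Naglu, 0.41 ± 0.11) and 5 were lower, against 8.06% and 7.08% of genes. Between 2 and 13 promoter regions were lower when single libraries were left out, and 0 were lower without both MG 2 and MG 3. The 13 came without MG 1, where 25.8% of all promoter regions were lower.

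**Figure D5:**
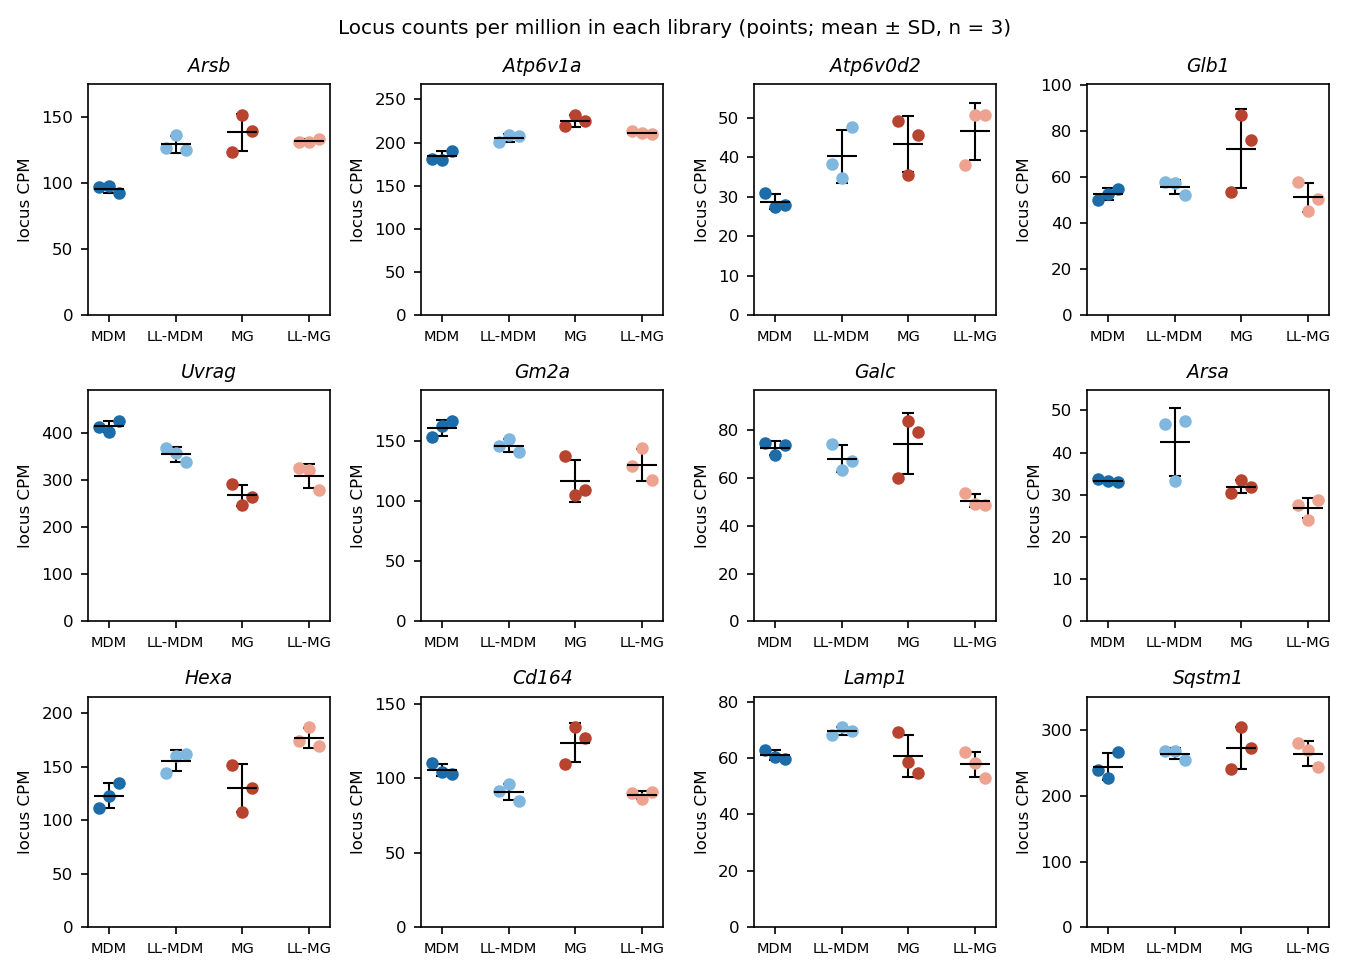
Locus CPM in each library (points), with the mean and SD of the 3 libraries of each group, for 12 of the genes. Uvrag is highest in the MDM libraries, Arsb lowest there, and Glb1, Galc and Cd164 show MG replicate 1 (left point of the group) below the other MG libraries.

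Between the lipid-laden groups fewer loci differed. LL-MG had higher counts than LL-MDM at 2 loci and lower at 3, where 12.1% of all loci were higher and 8.44% lower, and the medians were 0.01 over the 38 loci and -0.01 over all loci. Psap, the saposin precursor, had 109.9, 119 and 108 CPM in LL-MG against 86.1, 96.7 and 85.7 in LL-MDM (log2 0.30 ± 0.09, edgeR adjusted p 0.0213), without overlap. Atp6v0a1 had 95.2, 109 and 97.2 CPM in LL-MG against 75.0 to 87.4 in LL-MDM, also without overlap (log2 0.30 ± 0.09, edgeR adjusted p 0.0266). Arsa (chr15:89472476-89477424) had 27.5, 24.1 and 28.8 CPM in LL-MG against 46.9, 33.3 and 47.6 in LL-MDM. Its groups did not overlap, but LL-MDM 2 lay at the level of MDM, where Arsa had 33.0 to 33.6 CPM (log2 -0.60 ± 0.15, edgeR adjusted p 0.00718). Atp6ap1, an accessory subunit of the pump, had 42.5, 39.8 and 43.2 CPM in LL-MG against 53.7, 52.4 and 57.7 in LL-MDM (log2 -0.38 ± 0.11, edgeR adjusted p 0.0146). Galc had 74.2, 63.2 and 67.1 CPM in LL-MDM, above all LL-MG libraries (log2 -0.40 ± 0.12, edgeR adjusted p 0.0226). All 5 calls were lost without LL-MDM 3. Galc, Psap, Atp6v0a1 and Atp6ap1 were also lost without LL-MG 2, Galc, Psap and Atp6v0a1 without LL-MDM 1, and Galc without LL-MG 3. The call of Atp6v0a1 was also lost with the span without flanks, with regions of a single gene, with promoter regions only and without the 4 libraries low at Xist. Atp6ap1 was lost with the span without flanks and with promoter regions only, Galc with promoter regions only, and Psap without the 4 libraries low at Xist.

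Single regions of the lipid-laden groups were higher in 13 of 222 cases and lower in 13, against 10.3% and 11.2% of all tested regions. Of the 35 promoter regions, 1 was higher, at Atp6v0c, which encodes the proteolipid ring of V0, and 0 were lower, against 6.65% and 4.31% of all promoter regions. The upstream region of Uvrag, chr7:99143279-99143531, was the most different, with the values given above (log2 -2.98 ± 0.32, edgeR adjusted p 3.36e-08). An inner region of Lamp2, chrX:38439767-38439896, had 6.33, 4.23 and 5.08 CPM in LL-MG against 0, 1.53 and 1.03 in LL-MDM (log2 2.08 ± 0.47), and it had 0.219 to 0.380 CPM in MDM and 2.68 to 4.08 in MG.

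The lipid-load difference itself was compared between the lineages with an interaction term, the difference in microglia minus that in MDM. It was called for 3 loci, 1 positive and 2 negative, where 5.88% of all loci were positive and 2.96% negative. Positive calls were 66.5% of all calls, and 44.1% with total-count scaling. Arsb had a log2 fold change of 0.44 in LL-MDM against MDM and of -0.08 in LL-MG against MG, an interaction of -0.52 ± 0.12 (edgeR adjusted p 0.00848). All 9 libraries of MG, LL-MG and LL-MDM lay between 124 and 152 CPM at Arsb and the 3 MDM libraries at 98.3 or below. Glb1 had an interaction of -0.62 ± 0.19 (edgeR adjusted p 0.0491), kept in 1 of the 12 fits that left out a library, the one without MG 1. Uvrag had an interaction of 0.43 ± 0.12 (edgeR adjusted p 0.0237), with LL-MDM below MDM and LL-MG, at 326, 321 and 279 CPM, partly above MG. The call of Arsb was kept in all 12 fits, and that of Uvrag in 6, being lost without MDM 1, LL-MDM 2, LL-MDM 3, MG 3, LL-MG 1 or LL-MG 2. Without both MG 2 and MG 3 the calls of Arsb, Uvrag and Glb1 were all lost. In promoter counts scaled against other promoters, Lamp1 alone was called, with an interaction of -0.71 ± 0.19 (edgeR adjusted p 0.0323).

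In all, 20 of the 38 loci were called in at least 1 comparison of groups and 18 in none. The share of all loci called at least once was not computed, so this count cannot be read as particular to these genes. Of all 15540 loci, 6366 were called in MG against MDM, 3191 in LL-MG against LL-MDM, 3722 in LL-MDM against MDM and 2866 in LL-MG against MG. The 18 were the hydrolases Gla, Neu1, Asah1, Gusb and Naglu, the membrane proteins Lamp1, Mcoln1, Scarb2, Laptm4a and Laptm5, the pump subunits Atp6v0b, Atp6v0c, Atp6v0d1, Atp6v1b2, Atp6v1c1 and Atp6v1d, and the autophagy genes Sqstm1 and Gabarapl1. Their log2 fold changes ran from -0.28 (Lamp1 in LL-MG against LL-MDM) to 0.29 (Asah1 in LL-MG against MG). Lamp1 had 63.0, 60.5 and 59.5 CPM in MDM, 68.2, 71.1 and 69.7 in LL-MDM, 69.2, 58.4 and 54.8 in MG and 62.0, 58.2 and 52.9 in LL-MG. Its LL-MDM libraries lay above all MDM and LL-MG libraries, but neither difference passed the test. Sqstm1 had 227 to 267 CPM in MDM, 255 to 269 in LL-MDM, 241 to 306 in MG and 244 to 280.4 in LL-MG, and all 4 groups overlapped.

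Loci without a call still held regions that differed. At Laptm5, a lysosomal membrane protein of blood cells, the flanking region chr4:130912271-130912415 had 10.0, 10.7 and 11.8 CPM in MDM and at most 2.66 in every other library (log2 -2.55 ± 0.31 for MG against MDM). The inner region chr4:130921229-130921325 went the other way, with 1.71 to 2.17 CPM in MDM, 3.77 to 4.43 in LL-MDM, 4.82 to 11.5 in MG and 7.98 to 8.14 in LL-MG. At Scarb2, the receptor that carries glucocerebrosidase to lysosomes, the flanking region chr5:92509001-92509245 had 16.4 to 17.9 CPM in MDM and 5.48 to 8.75 in the other 9 libraries. Beside Atp6v1b2, a V1 subunit, the region chr8:69114931-69115212 had 1.52 to 2.26 CPM in MDM, 5.14 to 5.84 in LL-MDM, 6.35 to 8.90 in MG and 9.43 to 14.5 in LL-MG. None of these ranges overlapped, but the region was chosen for that in LL-MDM against MDM and in LL-MG against LL-MDM. At Laptm4a, a lysosomal transmembrane protein, chr12:8927644-8927976 had 19.9 to 23.9 CPM in LL-MDM and 6.11 to 9.05 in LL-MG (log2 -1.44 ± 0.23).

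Other genes of the pathway, from lists that hold none of the 38, gave a frame for these counts. These lists, too, were chosen with earlier results of the data known. Their calls stand beside the shares over all loci, which were 20.4% higher and 20.6% lower in MG against MDM, 11.7% and 12.2% for lipid load in MDM, 9.81% and 8.64% for lipid load in microglia, and 12.1% and 8.44% between the lipid-laden groups. Of 19 other lysosomal hydrolases, 5 were higher and 1 lower in MG against MDM, 4 and 1 in LL-MDM against MDM, 4 and 1 in LL-MG against MG, and 3 and 0 in LL-MG against LL-MDM. Manba, the beta-mannosidase, had 32.1, 40.1 and 34.8 CPM in MDM, 71.6, 59.2 and 72.0 in LL-MDM, 90.1, 69.0 and 86.5 in MG and 111, 115 and 103 in LL-MG. Its LL-MG libraries were above all others, and it was called higher in each of the 4 comparisons (log2 1.17 for MG and 0.88 for LL-MDM, each against MDM, and for LL-MG 0.44 against MG and 0.73 against LL-MDM). Of 20 other lysosomal membrane and trafficking genes, 6 were higher and 4 lower in MG against MDM. Sort1, the sorting receptor sortilin, was higher there by 1.23 ± 0.13, and Cln3, a lysosomal membrane protein, was at -0.60 ± 0.07. The list had 5 higher and 1 lower in LL-MDM against MDM, 4 and 1 in LL-MG against MG, and 3 and 1 in LL-MG against LL-MDM. The 38 loci had 1 higher and 5 lower in LL-MG against MG. Of 9 other V-ATPase subunits, 2 were higher and 1 lower in MG against MDM, 1 and 1 in LL-MDM against MDM, and 1 and 0 in each other comparison. Tcirg1, an a-type V0 subunit, was higher in LL-MDM against MDM (0.71 ± 0.18) and in LL-MG against MG (0.61 ± 0.18). Of 25 other autophagy genes, 5 were higher and 5 lower in MG against MDM, among them Optn, an autophagy receptor, at 0.65 ± 0.12 and Atg7, an enzyme of LC3 lipidation, at -0.43 ± 0.08. Each count of 5 lies near the share of all loci. In the lipid-load comparisons 1 of the 25 was higher in LL-MDM, and 3 were lower in LL-MG. Between the lipid-laden groups 2 were higher and 0 lower.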

How the data were processed

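ATAC-seq counts of 12 libraries in 117835 regions (median width 179 bp) formed the table the authors deposited: raw whole-number counts per region, with no normalization. The build mm10 and the tools deepTools 3.5.1, Picard 2.12.0, BWA 0.7.17-r1188 and SAMtools 1.10 are named, without their roles, per the submitters' processing notes. Which peak caller was used, and whether cut sites were shifted, is not given in the sources used here. Per the labels' protocols, in-house Tn5 and 2 rounds of PCR of 9 cycles were used. Since the role of Picard is not given, it is not known here whether PCR copies were removed. In the deposited counts copies cannot be told from fragments, and the spread between libraries was the error throughout.

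Groups followed the descriptions, whose running numbers form 3 sets with 1 library of each group (replicate 1, 2 or 3), and no label says what a set shares. The libraries low at Xist were those of the set of replicate 1. Titles give mouse numbers, but these conflict with the descriptions and with the Xist levels, so libraries were not tied to animals and p-values measure the spread between libraries, which may be technical. No 2 libraries of a group agreed within sampling noise. Locus counts summed regions over RefSeq gene spans (GRCm38.p6) with 5 kb flanks; exons and introns were not used here. After filterByExpr, 15540 of 16300 loci, all 38 members among them, and 77737 regions (222 of the members' 286) entered the tests of edgeR 4.0.16 under R 4.3.3 (TMM, glmQLFit robust, glmQLFTest, 1 model of the 4 groups, adjusted p under 0.05, no minimum fold). CPM values use TMM-scaled totals, separately for loci and regions. The single region of Gaa or Atp6v1d thus has different values in the 2 fits, and its calls can differ. The Atp6v1d region was called higher in MG against MDM and lower in LL-MG against MG, its locus in neither. Gaa was called lower in LL-MDM against MDM as a locus, not as a region. The TMM factor of MG 2 was 1.02 for loci and 0.896 for regions, so fold changes of loci and regions are not on the same scale. Standard errors come from the fold change and its F value. A level of 1 CPM is 1.16 to 18.9 counts per library.

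Members and lists were chosen with earlier results of these data known. Values per library are given for up to 6 members per direction by smallest p, for Galc, Arsa, Lamp1 and Sqstm1 regardless, for up to 3 genes per pathway list, and for the leading regions. Galc, Arsb and Lamp1 promoters and the Glb1 region were chosen after their values were seen. On simulated MG against MDM counts for 15410 genes, 69% of log2 changes of 0.5, 89% of those of 1 and 0.0986% of unchanged genes were called. The simulation gave all groups the same spread at a gene, although the MG libraries differed most among themselves. It changed 100 genes at each of the 2 sizes and left 15210 unchanged, whereas 6366 of 15540 loci were called in the data. The adjusted p depends on how many genes differ. These rates may therefore not hold for the comparisons made here. Alternatives included RLE, total-count and loess scaling, DESeq2 1.42.0, no low-count filter, thinning to the smallest total, other region assignments, fits without single libraries, groups by title and, added after the data were seen, 2 treatments of the Xist state and a block for the sets.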

Additional observations from a re-analysis of the deposited data

Results flagged for a closer look

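The lipid-load difference was tested for a difference between lineages, and 3 of the 38 loci passed. For Arsb the microglia value minus the MDM value was -0.52 on the log2 scale (edgeR adjusted p 0.00848), with LL-MDM above MDM in 3 of 3 libraries and LL-MG within the MG range. For Uvrag it was 0.43 (edgeR adjusted p 0.0237), with LL-MDM below MDM in 3 of 3 libraries and 2 of 3 LL-MG libraries above all MG libraries. For Glb1 it was -0.62 (edgeR adjusted p 0.0491), with MG 2 and MG 3 above the other libraries. Without both MG 2 and MG 3 none of the 3 passed (Arsb, Uvrag and Glb1). Their causes were not tested.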

How the results depend on the processing

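Of 923 recomputed calls of single loci, groups by title apart, 724 were kept, 190 no longer passed the threshold and 9 changed direction. With groups by title 2 of 36 were kept. Counts below are of the 38 loci, or of their regions where named, as higher and lower or positive and negative.

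Groups by title gave 0 and 0 loci in MG against MDM, in LL-MG against LL-MDM, in LL-MG against MG and in the interaction, and 1 and 1 in LL-MDM against MDM. Regions then numbered 0 and 0, 0 and 0, 14 and 11 in LL-MDM against MDM, and 6 lower in LL-MG against MG. Log2 fold changes that changed sign were, in MG against MDM, -0.0047 for Glb1, -0.065 for Gaa, -0.14 for Lamp2, -0.13 for Cd164 and -0.026 for Map1lc3b. In the lipid-laden groups they were 0.057 for Arsa, -0.082 for Psap and 0.086 for Atp6ap1, and for Atp6v0a1, LL-MG against LL-MDM gave -0.083, and in LL-MDM against MDM 0.19 for Gaa, 0.12 for Atp6v0a1 and -0.019 for Wipi1. In LL-MG against MG they were 0.30 for Glb1, 0.33 for Gaa, 0.17 for Cd164 and 0.12 for Map1lc3b, and in the interaction 0.17 for Glb1 and 0.00397 for Arsb.

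RLE scaling gave 1 lower locus in LL-MDM against MDM, and total-count scaling 1 there and 0 positive and 5 negative interactions. Loess offsets gave 5 lower loci in LL-MG against LL-MDM. DESeq2 gave 1 negative interaction, 26 higher regions in LL-MDM against MDM and 3 in LL-MG against MG. Thinning to the smallest total, which leaves fewer counts, gave 4 higher loci in MG against MDM, 1 lower in LL-MG against LL-MDM, 0 and 1 in LL-MDM against MDM, 2 lower in LL-MG against MG and 0 and 0 interactions. Regions were then 24 and 15, 5 and 4, 8 and 7, and 3 and 4 for the lineages without and with lipid load, then for lipid load in MDM and in MG.

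Fitting only the 2 groups compared gave 7 higher loci in MG against MDM, 4 and 7 in LL-MG against LL-MDM, 11 higher in LL-MDM against MDM and 0 and 0 in LL-MG against MG, with 1 and 4 regions. Without both MG 2 and MG 3 these were 6 and 1, 4 and 6, 12 higher, and 0 and 0, with 0 and 0 interactions. Regions were then 40 and 27 in MG against MDM, 20 lower in LL-MG against LL-MDM, and 0 and 0 in LL-MG against MG. Spans without flanks, and regions of a single gene, each gave 1 lower locus in LL-MDM against MDM and 2 higher in LL-MG against MG. With regions of a single gene Cd164 turned to -0.40 in MG against MDM. Promoter regions alone gave 0 lower loci in LL-MG against LL-MDM and 0 positive and 1 negative interaction. They turned Glb1 to -0.0896 in MG against MDM, 0.085 in LL-MG against MG and 0.019 in the interaction. They turned Galc to 0.13 in LL-MG against LL-MDM and 0.071 in LL-MG against MG, Atp6v0a1 to -0.76 in LL-MG against LL-MDM, and Uvrag to 0.091 in LL-MDM against MDM and -0.063 in the interaction. An Xist term, added after the data were seen, gave 2 higher loci in LL-MG against MG and 1 negative interaction. Leaving out the 4 libraries low at Xist, also added, gave 4 lower loci in MG against MDM, 0 higher in LL-MG against LL-MDM, 4 higher in LL-MG against MG, 3 positive interactions, and 14 and 26 regions in LL-MG against MG.

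Leaving out single libraries gave 7 to 16 higher and 2 to 4 lower loci in MG against MDM, 0 to 4 and 0 to 6 in LL-MG against LL-MDM, 2 to 8 and 1 to 4 in LL-MDM against MDM, 1 to 9 and 2 to 7 in LL-MG against MG, and 0 to 5 positive and 1 to 8 negative interactions. Regions ranged over 49 to 72 and 38 to 59, 5 to 16 and 8 to 17, 19 to 50 and 17 to 32, and 1 to 19 and 4 to 36, in the same order. The cause of these shifts was not tested. A replicate block for the 3 sets of description numbers, added after the data were seen, gave 5 lower loci in LL-MG against LL-MDM, 1 lower in LL-MDM against MDM and 1 negative interaction; 31 of 36 calls of single loci were kept. Over all loci, libraries of a set did not deviate together from their group means. Correlations were -0.14 to 0.11 in 18 pairs, 1 of them above 0.1, and 2 of 12 libraries were closest to their own set. Such correlations cannot show a trait shared at few loci, and replicate 1 of every group, which forms 1 set, was low at Xist. Depth limits the smallest library, LL-MDM 1, where 1 CPM is 1.16 counts.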
